A study of Mus musculus with 8 samples.

Results

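The change that 3 knockdowns had in common was measured in V6.5 cells, a mouse embryonic stem cell line. CapH2 (gene Ncaph2), Smc2 and Smc1 (gene Smc1a) were each knocked down with short hairpin RNAs. The control was a hairpin that targets GFP, which is not a mouse gene. The hairpin sequences were not available, so matches of the hairpins to other genes were not checked. The level of each gene on the 6 knockdown arrays was set against the 2 GFP arrays, and a gene was taken as a member where all 6 knockdown arrays lay on the same side of both GFP arrays. Of 12394 genes tested, 2727 (22.0%) met this rule, 1557 (12.6%) with all 6 knockdown arrays above and 1170 (9.44%) with all 6 below.

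There were 4 groups of 2 arrays, all of cells infected with virus in medium with 8 µg/ml polybrene and then kept for 4 days in 4 µg/ml puromycin, so the GFP cells shared the infection, the drug and a hairpin. CapH2 was targeted with hairpins 3 and 4 and Smc2 with hairpins 1 and 2, with 1 array for each hairpin, whereas Smc1 and GFP were each represented by biological replicates 1 and 2 of a single hairpin. RNA was taken after 5 days. Each array was hybridised with biotin-labelled RNA made from 100 ng of total RNA, and expression is given as its deposited intensity, a linear brightness per probe set. Because every knockdown is compared with the same 2 GFP arrays, a change common to the knockdowns and a property of the GFP hairpin or of its arrays cannot be told apart. In such bulk samples fewer cells of a type and less RNA per cell cannot be told apart either.

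Condensin and cohesin are ring-shaped protein complexes built on pairs of SMC proteins that hold or fold DNA. Smc2 is shared by condensin I and condensin II, Ncaph2 encodes a subunit of condensin II alone, and Smc1a is a core subunit of cohesin, which holds sister chromatids together and forms chromatin loops with CTCF. In embryonic stem cells cohesin and condensin II have both been found at active enhancers and promoters, and the series concerns the relation of condensin II to transcription. A gene that moves the same way after the loss of any of these proteins is one on which knockdowns of different complexes give a like readout.

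Changes are differences of log2(intensity + 16), a scale that understates the change of dim genes. The common change is the mean of the 3 knockdown group means minus the GFP mean, with the limma standard error (SE). Genes with an adjusted p below 0.05 (Benjamini-Hochberg over all 12394 genes) are referred to as called. Of the genes tested, 418 (3.37%) were called, 315 (2.54%) higher and 103 (0.831%) lower in the knockdowns, and 2919 (23.6%) had an unadjusted p below 0.05. The median common change over all genes tested was 0.01. Among the called genes 299 (2.41% of all tested) had all 6 knockdown arrays above both GFP arrays and 95 (0.766%) had all 6 below. The rule and the test use the same arrays, so the call is a description of how clear the change was, and nothing is read from how many members passed it. The spread behind each p-value pools differences between hairpins (CapH2 and Smc2) with differences between biological replicates of 1 hairpin (Smc1 and GFP).

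The 299 called genes that rose had a median common change of 1.09, with medians of 0.95 in the CapH2, 0.90 in the Smc2 and 1.55 in the Smc1 knockdown. At least a 2-fold change in each of the 3 knockdowns was reached by 106 of them. Of all 12394 genes tested, 244 changed at least 2-fold in each knockdown, in either direction. The called members were chosen for a common change on these arrays, so their count is a description. For the 95 that fell the median was -1.01, with -0.85, -0.85 and -1.33 in the same order, and 24 were at least 2-fold lower in each knockdown. In both sets the median was furthest from 0 in the Smc1 knockdown. Tested alone against GFP, the Smc1 knockdown called 1734 genes (14.0%). It called 285 of the 299 higher (9.30% of all genes) and 83 of the 95 lower (4.69%). The CapH2 knockdown alone called 2 (0.0161%), Hnrnpll and Ncaph2, and the Smc2 knockdown alone 2 (0.0161%), Hnrnpll and Smc2. Without the Smc1 arrays only Hnrnpll was called in limma, with 1857 genes at an unadjusted p below 0.05. The call also rested on each GFP array, since 8 genes were called without GFP replicate 1 (1429 at an unadjusted p below 0.05) and 1 without GFP replicate 2 (1952). Leaving out Smc1 replicate 1 gave 54 called genes and leaving out CapH2 hairpin 3 gave 157, whereas dropping CapH2 hairpin 4 gave 802 and dropping Smc2 hairpin 2 gave 1176.

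Array medians lay between 62.5 and 74.5 intensity units. Of 8 markers of embryonic stem cells (Pou5f1, Nanog, Sox2, Zfp42, Dppa5a, Esrrb, Tdgf1 and Utf1) 0 lay below the lowest array median on every array. Their summed intensity was 120763 to 125844 on the GFP arrays, 104847 to 119439 on the condensin knockdown arrays and 80469.7 to 95572 on the Smc1 arrays. In limma 0 of the 8 passed the threshold, with 4 at an unadjusted p below 0.05. Each targeted gene was lower in its own knockdown. Ncaph2 changed by -2.96 in the CapH2 knockdown and by -0.38 and -0.32 in the Smc2 and Smc1 knockdowns. Smc2 changed by -1.64 in its own knockdown and by -0.27 and -0.34 in the others. Smc1a changed by -2.95 in the Smc1 knockdown, -0.06 in CapH2 and -0.16 in Smc2. All 3 were therefore called in the common contrast through their own knockdown, and limma's F test of the difference among the knockdowns was at an adjusted p of 0.00127, 0.0100 and 0.000111.

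The size of the response differed from array to array within the knockdowns. Over the 299 called genes that rose, the median change from the GFP mean was 1.06 with CapH2 hairpin 3, 0.81 with CapH2 hairpin 4, 1.06 with Smc2 hairpin 1, 0.74 with Smc2 hairpin 2, and 1.63 and 1.41 on the Smc1 arrays. Over the 95 that fell it was -0.97, -0.72, -1.04, -0.64, -1.58 and -1.13 in the same order. In each knockdown the first array named was thus further from GFP than the second. Of the 299, 230 were brighter with CapH2 hairpin 3 than with hairpin 4 (76.9%, against 51.4% of all genes tested), 232 with Smc2 hairpin 1 than with hairpin 2 (77.6%, against 44.8%) and 232 on Smc1 replicate 1 than on replicate 2 (77.6%, against 44.4%). The ratio of the 3' to the 5' Actb control probe sets, which reflects the quality of the RNA and its labelling, was 1.67 and 1.98 on the CapH2 arrays, 1.82 and 2.18 on Smc2, 1.70 and 1.84 on Smc1, and 2.18 and 2.04 on GFP. The lower ratio was therefore also on the first array in each knockdown. With this ratio as a covariate, limma called 5 genes (Gja1, H2-D1, Hnrnpll, Sema3e and Taok3), with 1650 at an unadjusted p below 0.05. With 1 array for each hairpin, a difference between CapH2 or Smc2 arrays cannot be told apart from one between their hairpins.

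**Figure D1:**
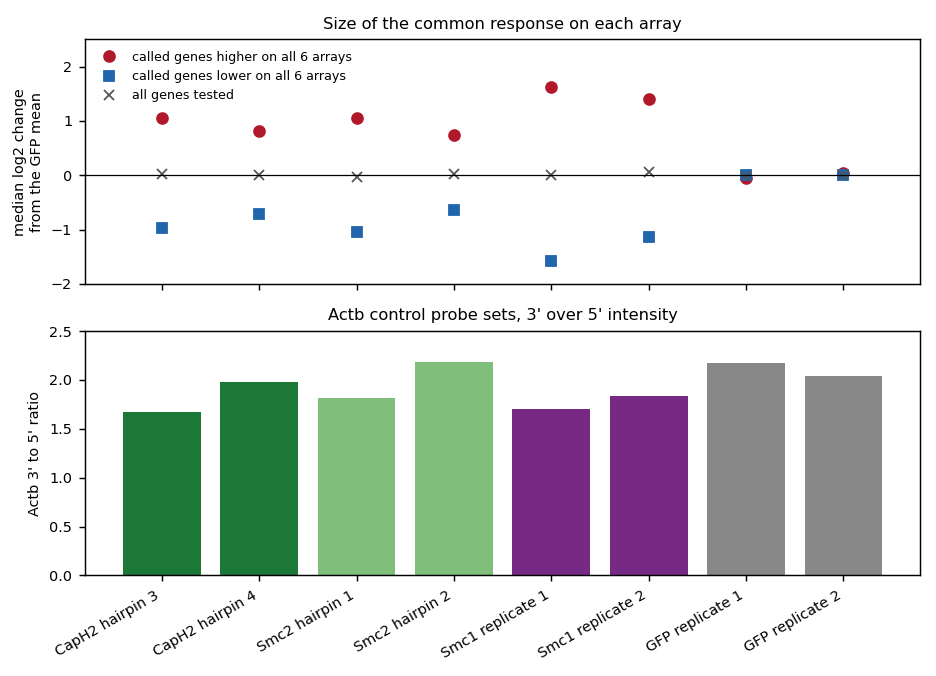
Top, the median log2(intensity + 16) change from the GFP mean on each of the 8 arrays, over the 299 called genes higher on all 6 knockdown arrays (circles), the 95 called genes lower on all 6 (squares) and all 12394 genes tested (crosses). Bottom, the Actb 3' to 5' intensity ratio on the same arrays, between 1.67 and 2.18; in each knockdown the array with the larger response has the lower ratio.

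Hnrnpll, which encodes an RNA-binding protein of the hnRNP L family that regulates alternative splicing, was the only one of the 418 called genes that stayed called in all 22 alternative settings. Its intensity was 4861 and 5578 on the CapH2 arrays, 5654 and 4742 on the Smc2 arrays, 5333 and 5142 on the Smc1 arrays and 1450.4 and 1587 on the GFP arrays. The 6 knockdown arrays formed 1 tight cluster far above the control, the highest being 1.19 times the lowest. The common change was 1.77 (SE 0.13, limma adjusted p = 0.000942), made up of 1.77, 1.76 and 1.78 in the CapH2, Smc2 and Smc1 knockdowns, and the F test among them had an adjusted p of 0.999. Of the CapH2 arrays that of hairpin 4 was the brighter, and of the Smc2 arrays that of hairpin 1. A second probe set of the gene read 3164 and 3481 in CapH2, 3409 and 3494 in Smc2, 3293 and 3249 in Smc1, and 1423 and 1652 in GFP, a common change of 1.12. With the 6 knockdown arrays fitted as 1 group, limma called 4 genes, which besides Hnrnpll were Tcfl5 (a basic helix-loop-helix factor), Zhx1 (a zinc finger and homeobox repressor) and Ifit2, and the first 2 of these are named for that reason after their values were seen. Tcfl5 was at 5028 and 5592, 6667 and 5106, and 5471 and 4949 in the 3 knockdowns and at 2656 and 1562 in GFP, a change of 1.41 (limma adjusted p = 0.0140). Zhx1 was at 154 and 68.8, 124 and 104, and 158 and 105 against 8.98 and 2.95, a change of 2.59 (adjusted p = 0.0140) from a control level far below the array medians.

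The other hnRNP and splicing regulators tested had smaller changes. Of the 35 in this list, 10 lay above GFP on all 6 arrays (28.6%, against 12.6% of all genes) and 1 below (2.86%, against 9.44%), and 3 were called, all higher, where 2.54% of all genes were. The median of this list was 0.14. Hnrnpa0, an hnRNP A/B protein, was at 7479 and 7444 in CapH2, 7520.0 and 7059 in Smc2 and 6264 and 7920.1 in Smc1, against 4387 and 4805 in GFP. It rose by 0.66 (SE 0.12, limma adjusted p = 0.0253), by much the same in each knockdown (0.70, 0.66 and 0.62). Srsf2, a serine and arginine rich splicing factor, rose by 0.88 (adjusted p = 0.0465). Hnrnpl, the close relative of Hnrnpll, changed by -0.08 (adjusted p = 0.709) and was not a member. Dicer1, the nuclease that cuts hairpin RNAs into short interfering RNAs and microRNAs, was at 1389 and 1207, 1201 and 832, and 1039.6 and 1063 against 499 and 619 in GFP and rose by 0.98 (SE 0.18, adjusted p = 0.0262). A second probe set of Dicer1 changed by 0.39 and its arrays overlapped, with 598 for Smc2 hairpin 2 against 545 and 661 in GFP. Dicer1 was the only called gene of 13 tested in the RNA interference machinery, whose median was 0.26.

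Among the called genes that reached 200 intensity units, 12 were singled out for the largest rise in their least affected knockdown. One of them, Lpar4, a receptor for lysophosphatidic acid, was at 970.2 and 216 in CapH2, 901 and 166 in Smc2 and 1141 and 463 in Smc1, against 9.77 and 92.9 in GFP. Both GFP arrays lay below all 6 knockdown arrays, but the control arrays themselves lay far apart. The common change was 3.31 (SE 0.74, limma adjusted p = 0.0448), and its value ranged from 1.54 to 4.35 over the alternative settings. Further probe sets of Lpar4 changed by 2.49 and 1.69, but their arrays overlapped. In the former Smc2 hairpin 2 was at 33.1 against 1.23 and 37.5 in GFP. In the latter CapH2 hairpin 4 was at 10.5 against 5.69 and 11.3. Vgf, the precursor of secreted neuropeptides, and Pdlim3, a PDZ and LIM domain protein of the cytoskeleton, had control arrays as far apart (7.30 and 68.5, and 84.2 and 8.47). Their common changes were 2.38 (adjusted p = 0.0361) and 2.69 (adjusted p = 0.0217). Of the 299 called genes that rose, 57 had a GFP mean below 62.5, the lowest array median, against 813 of all 12394 genes tested. For these 57 the size of the change depends on the constant added before the logarithm. A gene was tested where it exceeded the array median on at least 2 of 8 arrays. Genes this dim in GFP could not meet that on the GFP arrays alone. Their place above GFP was therefore in part set by the filter.

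Lefty1, a secreted inhibitor of Nodal signalling, was a bright gene on every array. Its intensity was 9062 and 6648 in CapH2, 10270.2 and 3373 in Smc2 and 8934 and 5945 in Smc1, against 1871 and 1676 in GFP. The lowest knockdown array, Smc2 hairpin 2, was still above both controls. The common change was 1.96 (SE 0.34, limma adjusted p = 0.0234), with 2.12, 1.72 and 2.03 in the 3 knockdowns. Lefty2, its neighbouring paralog, rose by 1.20 (adjusted p = 0.0328), with Smc2 hairpin 2 between the GFP arrays. Nodal itself changed by 0.69 and was not called (adjusted p = 0.0736).

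Id3 encodes an inhibitor of basic helix-loop-helix factors and is a direct target of BMP signals in these cells. It was at 971 and 202 in CapH2, 667 and 307 in Smc2 and 1735 and 1142 in Smc1, against 57.9 and 73.3 in GFP. All knockdown arrays were well above the controls, with the first array of each knockdown the brighter. It rose by 3.06 (SE 0.49, limma adjusted p = 0.0214), 2.51 and 2.53 in the condensin knockdowns and 4.13 with Smc1. Genes of the same pathway were then looked up in a list of 29 BMP ligands, receptors, Smads, inhibitors and targets. The list was made after values of its members had been seen and includes Id3, so its counts only describe these genes. Of 23 tested, 6 lay above GFP on all 6 arrays (26.1%, against 12.6% of all genes) and 1 below (4.35%, against 9.44%). The median was 0.19 and 5 were called, all higher (against 2.54% of all genes), Id3 and the 4 that follow. Id1 was at 2705 and 1439, 1899 and 1707, and 4019 and 3983 against 832 and 902 and rose by 1.47 (adjusted p = 0.0153). Smad1, the transcription factor that BMP receptors phosphorylate, was at 2040.5 and 2144, 2035 and 1772, and 2034 and 1997 against 1137 and 1211 and rose by 0.76 (adjusted p = 0.0236). The receptor Bmpr2 rose by 0.67 (adjusted p = 0.0399). Id2 rose by 0.92 (adjusted p = 0.0365), with 1 knockdown array below the brighter control.

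Egr1, an immediate early transcription factor induced by growth factor signals and serum response factor, was at 2086 and 925 in CapH2, 2104 and 569 in Smc2 and 1990.5 and 1006 in Smc1, against 288 and 313 in GFP. Its change was 2.05 (SE 0.46, limma adjusted p = 0.0448) and close to the same size in each knockdown (2.15, 1.82 and 2.18), while in each knockdown the first array was far brighter than the second. Bend3, a BEN domain protein of heterochromatin, showed the same evenness between knockdowns (1.75, 1.73 and 2.20, adjusted p = 0.0332). Chst15, a sulfotransferase that modifies chondroitin sulfate, went from 8.32 and 10.1 in GFP to 287 and 89.5, 255 and 47.7, and 601 and 485, a rise of 3.22 (adjusted p = 0.0217). Ms4a4d, a membrane protein of the MS4A family, rose by 3.15 (adjusted p = 0.0246), from 5.28 and 21.3 to 1134 and 598 on the Smc1 arrays.

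**Figure D2:**
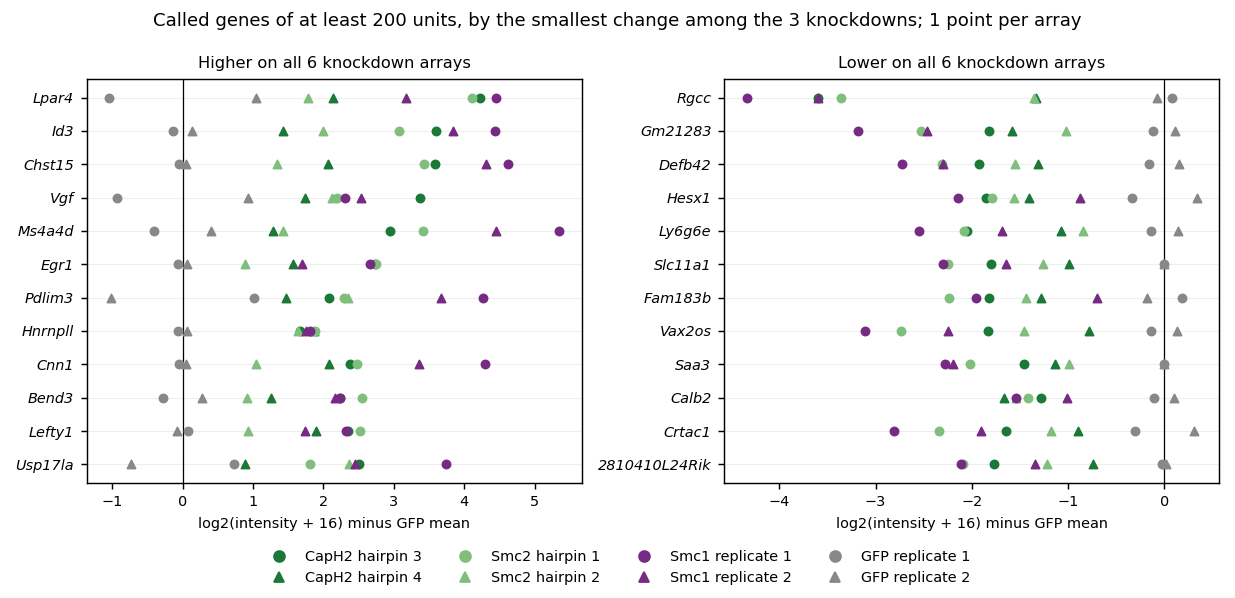
Each point is 1 array, as log2(intensity + 16) minus the GFP mean, for 12 called members that rose (left) and 12 that fell (right), those with the largest change in the least affected knockdown among genes that reached 200 intensity units, in that order. Colours are the groups and circles and triangles the first and second array of a group. The 6 knockdown points of Hnrnpll lie closest together of the genes shown, over 0.25 log2 units. Its mean changes by knockdown, which are not drawn, were 1.76 to 1.78.

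Genes of the contractile apparatus and targets of serum response factor or Yap rose in part. Of 24 tested, 5 lay above GFP on all 6 arrays (20.8%, against 12.6% of all genes) and 5 were called, all higher, where 2.54% of all genes were: Ccn2, Cnn1, Egr1, Lats2 and Myl9. The median of the list was 0.72, with 0.28 in CapH2, 0.14 in Smc2 and 1.48 in Smc1. Cnn1, the smooth muscle protein calponin, was at 135 and 107, 145 and 43.9, and 551 and 283 against 11.9 and 14.2 in GFP and rose by 2.60 (SE 0.39, limma adjusted p = 0.0175). Myl9, a myosin regulatory light chain, was at 561 and 278, 682 and 339.9, and 2230.2 and 1639.7 against 142 and 273. It rose by 1.78 (adjusted p = 0.0281), more in Smc1 than in the condensin knockdowns by 2.09 (adjusted p = 0.0113). Ccn2, a secreted matrix protein and Yap target, rose by 1.38 (adjusted p = 0.0448), whereas in Lats2 the knockdown and control arrays overlapped. Gja1, the gap junction protein connexin 43, was looked up after its values were seen because its call held with the Actb covariate. It was at 10704 and 7085, 12904 and 8947, and 18669 and 14558 against 3409.9 and 3497 in GFP, with all 6 arrays at least 2-fold above both controls, and rose by 1.74 (SE 0.18, adjusted p = 0.0117). The summed intensity of 8 feeder fibroblast markers was 550.03 to 603 on the GFP arrays and 611 to 1076 on the knockdown arrays and Lum and Prrx1 lay below the lowest array median on every array. Of the 6 markers tested, limma called 0, and 2 had an unadjusted p below 0.05. Their part in these changes was not tested.

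Genes of the primed epiblast, the state that follows naive pluripotency after implantation, held called genes in 1 direction only. Of 16 tested, 7 lay above GFP on all 6 arrays (43.8%, against 12.6% of all genes) and none below, 3 were called higher (against 2.54% of all genes), and the median was 0.76. Cdh2, or N-cadherin, was at 338 and 194 in CapH2, 328 and 129 in Smc2 and 556 and 396 in Smc1, against 49.6 and 95.8 in GFP. It rose by 1.85 (SE 0.36, limma adjusted p = 0.0285). The transcription factor Sox4 was at 4309 and 3844, 4878 and 3541, and 7857 and 5587 against 2609 and 2796 and rose by 0.83 (adjusted p = 0.0321), and Sox3 rose by 1.22 (adjusted p = 0.0462). Dnmt3b, the de novo DNA methyltransferase of the epiblast, lay above the controls on every array (9522 and 4871, 12177 and 2928, and 8532 and 8935 against 1849.6 and 2511) but missed the threshold (1.71, adjusted p = 0.0625), as did Pou3f1 (1.70, adjusted p = 0.0572).

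Of 13 tested neural and ectoderm genes, 5 lay above on all 6 arrays (38.5%, against 12.6% of all genes) and none below, and the median was 0.63. Sox11, a transcription factor of neural precursors, was at 675 and 622, 929 and 521, and 1147 and 778 against 287 and 265 in GFP. It rose by 1.40 (SE 0.23, limma adjusted p = 0.0217), by similar amounts in each knockdown (1.19, 1.29 and 1.72). Neurod1, a proneural factor, was called (0.86, adjusted p = 0.0449), with Smc1 replicate 1 between the controls. The summed intensity of the neural markers Sox1, Pax6, Tubb3 and Nes was 1019 to 1044 on the GFP arrays and 1053 to 2278 on the knockdown arrays, limma called 0 of the 4 (2 had an unadjusted p below 0.05), and their part in the change was not tested. Of 10 mesendoderm and mesoderm genes and 17 endoderm genes limma called 0, with 1 and 6 at an unadjusted p below 0.05. Of all genes tested 23.6% had such a p.

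Among 9 tested genes of the two-cell-like state, a rare state of these cultures that resembles the two-cell embryo, 5 lay above GFP on all 6 arrays (55.6%, against 12.6% of all genes) and 3 were called higher, where 2.54% of all genes were. The median was 1.16, the highest of the 31 lists. Usp17la, a deubiquitinase of the Dub family, was at 1378 and 438, 844 and 1250.4, and 3257 and 1328 against 392 and 132 and rose by 2.29 (SE 0.49, limma adjusted p = 0.0403). It belongs to a family of near-identical copies, so the gene that gave the signal is uncertain. The other called members, Arg2, a mitochondrial arginase (1.71, adjusted p = 0.0295), and Zfp809, a zinc finger protein that silences retroviruses in embryonic cells (0.97, adjusted p = 0.0465), are not restricted to that state. The best known marker of the state, Zscan4c, was not among the tested genes.

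Imprinted genes are expressed from 1 parental copy, and those called higher lay mostly in the Dlk1-Meg3 domain. Of 26 tested, 9 lay above GFP on all 6 arrays (34.6%, against 12.6% of all genes) and 2 below (7.69%, against 9.44%). The 4 called higher, where 2.54% of all genes were, were Meg3, Mirg, Rian and Ndn. Meg3, a long noncoding RNA of the maternal copy, was at 6373 and 5355 in CapH2, 6103 and 5196 in Smc2 and 12504 and 12315 in Smc1, against 3953 and 2814 in GFP. It rose by 1.15 (SE 0.15, limma adjusted p = 0.0140), with 0.81, 0.75 and 1.89 in the 3 knockdowns. Rian, the next noncoding RNA of the domain, rose by 0.85 (adjusted p = 0.0368), with only 0.23 in CapH2, 0.66 in Smc2 and 1.67 in Smc1. Mirg, which hosts a cluster of microRNAs, rose by 1.78 (adjusted p = 0.0285). Meg3, Rian and Mirg are neighbours in the RefSeq gene order among the genes tested, and the 3 formed the longest run of called genes that rose. Ndn, a MAGE family gene of the paternal Prader-Willi domain, rose by 0.80 (adjusted p = 0.0286), with 0.44 in CapH2 and 0.55 in Smc2.

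The interferon response held called genes in both directions. Of 38 tested, 7 lay above GFP on all 6 arrays (18.4%, against 12.6% of all genes) and 6 below (15.8%, against 9.44%). In this list 8 were called higher and 3 lower, where 2.54% and 0.831% of all genes were, and the median was 0.69, with 0.16 in CapH2, 0.18 in Smc2 and 1.60 in Smc1. Ifit2, an antiviral protein that binds RNA, was at 134 and 97.0, 146 and 127, and 149 and 159.6 against 22.4 and 6.48 in GFP and rose by 2.35 (SE 0.29, limma adjusted p = 0.0140), by like amounts in each knockdown (2.15, 2.37 and 2.54). The GFP level was below the lowest array median, so this size depends on the added constant. The MHC class I genes H2-D1 and H2-K1 and the immunoproteasome subunit Psmb8 rose by 1.53, 1.38 and 2.71 (adjusted p = 0.0117, 0.0217 and 0.0217), more in the Smc1 knockdown. Psmb8 was at 133 and 54.4 in CapH2, 121 and 90.5 in Smc2 and 1426 and 942 in Smc1, against 50.9 and 4.67 in GFP. Its mean GFP level was also below the lowest array median, and a further probe set of Psmb8 was dim with overlapping arrays. H2-D1 was at 666 and 544 in CapH2, 370.0 and 438 in Smc2 and 1856 and 1853 in Smc1, against 262 and 249.8 in GFP, so the condensin arrays lay between the control and Smc1 arrays. The 3 that fell were Ifitm1, Ifitm2 and Ifitm3, which are highly expressed in these cells.

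**Figure D3:**
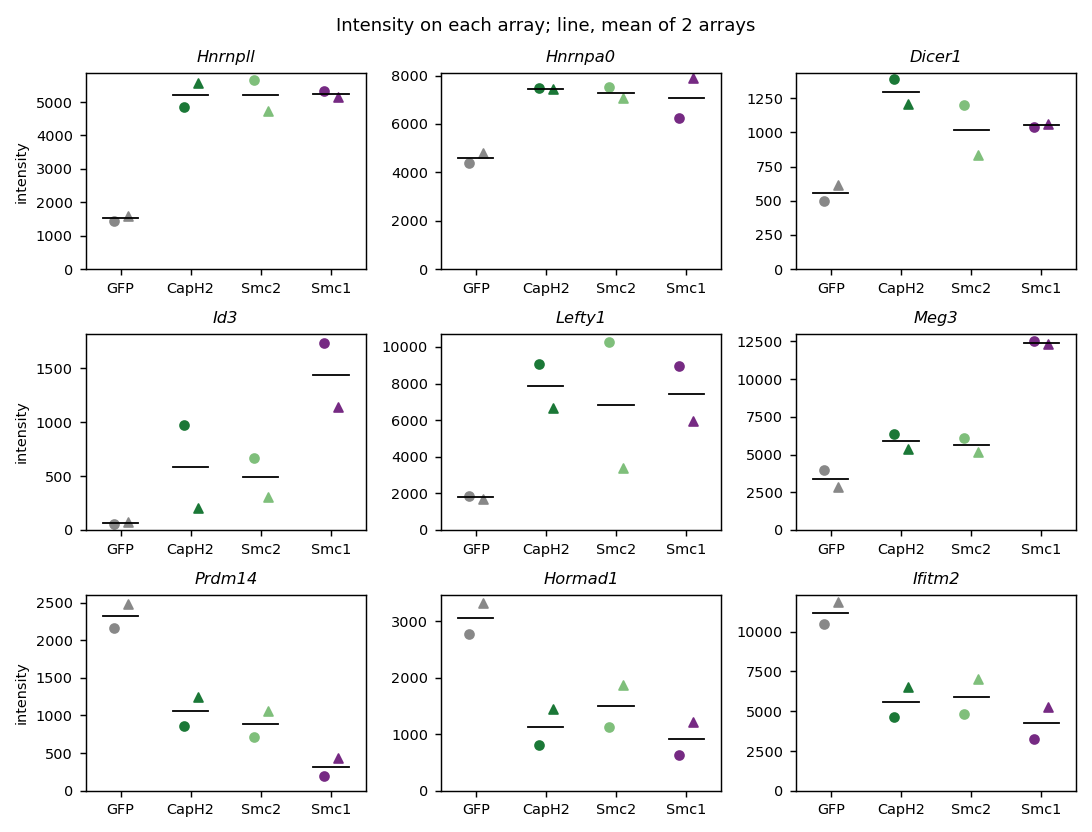
Intensity (linear, from 0) on each array for 9 called members, with the mean of the 2 arrays of a group as a line; circles and triangles are the first and second array. Hnrnpll lies at 4742 to 5654 on the knockdown arrays and at 1450.4 and 1587 on the GFP arrays, whereas Meg3 is highest in Smc1 (12504 and 12315) and Prdm14 lowest there (193 and 439).

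The 12 genes that fell and were chosen in the same way were mostly of low or moderate intensity. Rgcc, a regulator of the cell cycle and of complement responses, was at 149 and 781 in CapH2, 179.6 and 768 in Smc2 and 83.1 and 149 in Smc1, against 2097 and 1887 in GFP. The 6 knockdown arrays lay at least 2-fold below both controls. It fell by 2.93 on the log2 scale (SE 0.59, limma adjusted p = 0.0321). Hesx1, a homeobox repressor of forebrain and pituitary development, was at 135 and 189, 141 and 169, and 107 and 282 against 415 and 674. It fell by 1.60 (adjusted p = 0.0337) with nearly equal changes in the knockdowns (-1.63, -1.68 and -1.51). Calb2, the calcium-binding protein calretinin, was as even, with changes of -1.47, -1.48 and -1.28 and an adjusted p of 0.0217. Saa3, an acute phase protein, was at 197 and 251, 129 and 279.7, and 105 and 112 against 571 and 569 and fell by 1.68 (adjusted p = 0.0212), and Slc11a1, a metal transporter of phagosomes, fell by 1.71 (adjusted p = 0.0250). The others of the 12, Gm21283, Defb42, Ly6g6e, Fam183b, Vax2os, Crtac1 and 2810410L24Rik, fell by 1.55 to 2.10, and Gm21283 is a predicted gene and 2810410L24Rik an unnamed transcript.

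The called germline genes all fell. Of 21 tested genes of the germline and of meiotic cohesin, 8 lay below GFP on all 6 arrays (38.1%, against 9.44% of all genes) and none above, and 3 were called, all lower, where 0.831% of all genes were. The median was -0.44. Prdm14, a regulator of naive pluripotency and of primordial germ cells, was at 861 and 1247 in CapH2, 717 and 1064 in Smc2 and 193 and 439 in Smc1, against 2159 and 2487 in GFP. It fell by 1.82 (SE 0.29, limma adjusted p = 0.0212). Hormad1, a protein of the meiotic chromosome axis, was at 812 and 1443, 1136 and 1870.4, and 634 and 1208 against 2776 and 3330.3 and fell by 1.43 (adjusted p = 0.0332). Dazl, an RNA-binding protein of germ cells, was at 466 and 672, 533 and 1292, and 677 and 1379 against 1829.6 and 2832 and fell by 1.55 (adjusted p = 0.0477). The meiotic cohesin subunits Smc1b and Stag3 lay below the controls on all 6 arrays but were not called (-1.63 and -1.21, adjusted p = 0.217 and 0.106). In Smc1b the arrays of 1 knockdown were several-fold apart (123 and 428, 69.3 and 644, and 113 and 495, against 849 and 660.3 in GFP).

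The general and naive pluripotency genes moved in both directions. Of 37 tested, 8 lay below (21.6%, against 9.44% of all genes) and 3 above on all 6 arrays (8.11%, against 12.6%). In this list 4 were called lower and 2 higher, where 0.831% and 2.54% of all genes were, and the median was -0.26, with -0.05 in each condensin knockdown and -0.66 in Smc1. Besides Prdm14 the genes that fell were Tcl1, an Akt coactivator, Pecam1, a surface adhesion protein of naive cells, and Klf2, a Krüppel-like factor. Tcl1 was at 1474 and 2189, 1401 and 2016, and 386 and 741 against 3104 and 3931 and fell by 1.56 (SE 0.26, limma adjusted p = 0.0217), Pecam1 by 1.40 (adjusted p = 0.0250) and Klf2 by 1.22 (adjusted p = 0.0448). The 2 that rose were Lefty1 and Lefty2, which inhibit Nodal signals. The core factors were not called: Pou5f1 (-0.43, adjusted p = 0.177), Nanog (-0.38, 0.0580) and Sox2 (-0.45, 0.116). Nanog and Esrrb (-0.81, adjusted p = 0.0771) nevertheless lay below both controls on all 6 arrays.

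Members next to each other on a chromosome included families that fell together, picked here after their values were seen. In the RefSeq gene order among the genes tested, 12 of 95 called genes that fell (12.6%) lay next to another such gene, where 1.47% of all placed genes lay next to one. For the genes that rose it was 21 of 298 (7.05%, against 4.68%). The longest runs were Ifitm5, Ifitm2, Ifitm1, Ifitm3 and B4galnt4, of which 4 were called, and the 4 metallothioneins Mt4, Mt3, Mt2 and Mt1, of which 3 were called. Ifitm2 was at 4639 and 6522 in CapH2, 4803 and 7018 in Smc2 and 3238 and 5296 in Smc1, against 10509.5 and 11879 in GFP, and fell by 1.13 (SE 0.21, limma adjusted p = 0.0273). Ifitm1 fell by 0.87 and Ifitm3 by 0.45 (adjusted p = 0.0285 and 0.0429). These encode small membrane proteins that restrict the entry of viruses, and their mRNAs are alike, so part of a signal can be shared between their probe sets. Mt1 and Mt2, the metal-binding metallothioneins, had small changes from a high level, with Mt1 at 12210.5 and 14036, 12896 and 14859.7, and 16167 and 17431 against 21058 and 20879.5 and Mt2 at 17545 and 18015, 20809.9 and 20334, and 19508 and 18623 against 27300.0 and 25059.9. They fell by 0.53 and 0.45 (adjusted p = 0.0262 and 0.0246). Mt4 fell by 1.86 (adjusted p = 0.0217).

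The 250 bases upstream of the start of the highly expressed genes of both runs are shown with the motifs that were searched in them. They are from RefSeq, assembly GRCm38.p6, written 5′ to 3′ on the strand of the gene, at chr8:94178839-94179088 for Mt1 and chr8:94172368-94172617 for Mt2 (both plus), chr7:140967826-140968075 for Ifitm1 (plus), chr7:140955962-140956211 for Ifitm2 and chr7:141010745-141010994 for Ifitm3 (both minus). Capitals mark TGCACNC or TGCGCNC, the core of the metal response element, in the Mt genes and GAAANNGAAA, the core of the interferon response element, in the Ifitm genes, each on either strand.
Mt1: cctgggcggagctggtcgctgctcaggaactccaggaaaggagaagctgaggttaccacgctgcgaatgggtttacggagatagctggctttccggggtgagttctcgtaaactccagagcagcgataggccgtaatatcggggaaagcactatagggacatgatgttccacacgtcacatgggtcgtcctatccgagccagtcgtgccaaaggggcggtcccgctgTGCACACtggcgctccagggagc
Mt2: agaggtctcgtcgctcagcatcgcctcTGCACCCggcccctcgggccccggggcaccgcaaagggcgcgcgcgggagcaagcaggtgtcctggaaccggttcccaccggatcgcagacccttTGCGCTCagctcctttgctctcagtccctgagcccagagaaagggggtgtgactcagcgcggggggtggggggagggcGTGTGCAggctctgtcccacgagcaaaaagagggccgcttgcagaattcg
Ifitm1: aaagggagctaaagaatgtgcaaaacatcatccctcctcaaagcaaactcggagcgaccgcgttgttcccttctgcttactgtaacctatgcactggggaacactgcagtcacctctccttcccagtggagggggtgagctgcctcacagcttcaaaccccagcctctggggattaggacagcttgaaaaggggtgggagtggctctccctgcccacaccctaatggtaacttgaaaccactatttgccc
Ifitm2: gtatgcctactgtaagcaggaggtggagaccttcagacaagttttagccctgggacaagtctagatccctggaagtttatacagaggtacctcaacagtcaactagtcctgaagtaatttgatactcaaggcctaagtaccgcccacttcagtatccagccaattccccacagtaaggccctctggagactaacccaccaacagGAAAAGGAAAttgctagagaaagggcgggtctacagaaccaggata
Ifitm3: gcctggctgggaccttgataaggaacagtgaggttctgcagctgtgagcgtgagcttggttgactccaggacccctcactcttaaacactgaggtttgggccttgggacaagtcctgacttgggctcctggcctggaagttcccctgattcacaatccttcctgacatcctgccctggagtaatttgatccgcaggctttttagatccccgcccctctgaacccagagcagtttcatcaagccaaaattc
Mt1 holds 1 match to the metal motif and Mt2 holds 3, where 21.4% of 32851 windows of this length hold at least 1 and 1.26% at least 3. Ifitm2 holds 1 match to the interferon motif, which 2.98% of the windows hold, and Ifitm1 and Ifitm3 hold 0 in these windows. These matches are descriptions of letters and not sites of binding.

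Whether the knockdowns differed was tested within the same fit by contrasts that hold no GFP array, CapH2 minus Smc2, and Smc1 minus the average of the 2 condensin knockdowns. By the F test of both together 286 genes (2.31%) of all tested differed. Of the 299 called members that rose 37 differed (12.4%) and of the 95 that fell 8 (8.42%). For Smc1 against the condensin knockdowns 961 genes (7.75%) differed, 685 (5.53%) higher and 276 (2.23%) lower in Smc1. Of the 299, 86 were higher still in Smc1 and 1 was lower, and of the 95, 22 were lower still and 2, Ncaph2 and Smc2, higher. The exception among the genes that rose was Snrpa1, a spliceosome protein, with a difference of -0.47 between Smc1 and the condensin knockdowns (limma adjusted p = 0.0346). These tests divide by the same spread of each gene as the common contrast, so a gene with a small spread passes either more readily. The counts over all genes were 3 by the F test and 9 for Smc1 against the condensin knockdowns without Smc1 replicate 1, and 62 and 384 without Smc1 replicate 2. The F test count was also below the main one without CapH2 hairpin 4 (173), GFP replicate 1 (72) or GFP replicate 2 (66) and above it without Smc2 hairpin 2 (564), and the Smc1 count was 467 without CapH2 hairpin 4, 582 without GFP replicate 1 and 567 without GFP replicate 2.

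Beside the targeted genes, the called members with the smallest p in the F test among knockdowns were Mmp9, Tmcc3 and H2-D1, whereas the difference itself was larger for others, such as Psmb8 (3.40, adjusted p of the F test 0.0194). Mmp9, a matrix-degrading protease, was at 105 and 77.3 in CapH2, 83.3 and 113 in Smc2 and 549 and 452 in Smc1, against 54.2 and 63.9 in GFP. Its change was 2.23 larger in Smc1 than in the condensin knockdowns (SE 0.25, limma adjusted p = 0.00293). Tmcc3, a coiled-coil protein of the endoplasmic reticulum, was at 426 and 244, 257 and 470.3, and 2001 and 1559 against 159 and 202 and differed by 2.34 (adjusted p = 0.00355). At the other end were genes whose 3 changes lay close to each other, such as Hnrnpll, Hnrnpa0 and Srsf2. For these a p above the threshold does not show that the knockdowns act alike. The difference between Smc1 and the condensin knockdowns was 0.01 (SE 0.14) for Hnrnpll, -0.07 (SE 0.13) for Hnrnpa0 and 0.19 (SE 0.49) for Egr1.

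**Figure D4:**
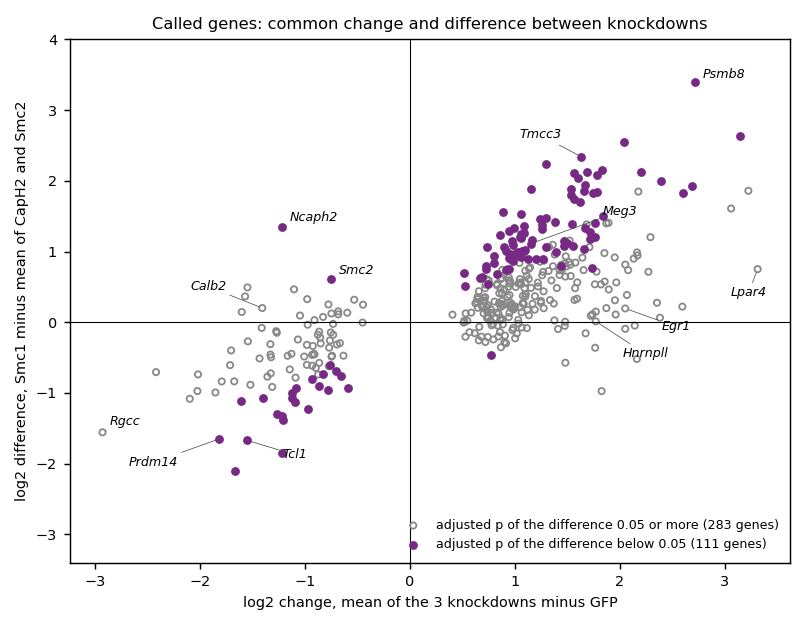
Each of the 394 called members by its common log2 change (x axis) and by the log2 difference between the Smc1 and the condensin knockdowns (y axis). Filled points (111 genes) have a limma adjusted p of that difference below 0.05; most lie at the upper right or lower left, so the change was larger in Smc1, while Hnrnpll lies on the zero line.

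Other probe sets of the same genes, whose values had not entered the test, were also read. They measured the same RNA on the same arrays, GFP arrays included, so they are not a repeat of the comparison with GFP. The matching shares for further probe sets of genes that were not called are not given, so the counts below only describe these genes. For 169 of the called genes that rose, 303 further probe sets passed the filter on low values. Of these 260 changed in the same direction, 149 lay above GFP on all 6 arrays and 6 below on all 6, with a median change of 0.62. For 40 of the genes that fell there were 69, of which 65 changed in the same direction, 35 lay below on all 6 arrays and 0 above, with a median of -0.60. Some probe sets of named genes read otherwise. One of Gja1 changed by -0.12 and one of Srsf2 by -0.17, and 6 of the 10 further probe sets of Meg3 had overlapping arrays (-0.38 to 0.59). Probe sets that failed the filter showed little, with a median of 0.01 over 147 for the genes that rose.

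The other gene lists held few or 0 called genes, where 3.37% of all genes were called. Among 29 tested p53 targets only Plk2, a polo-like kinase, was called, and it rose (1.27, limma adjusted p = 0.0328). Of these targets 4 lay above GFP on all 6 arrays (13.8%, against 12.6% of all genes) and 0 below. At an unadjusted limma p below 0.05, 10 were higher and 0 lower, where 23.6% of all genes were in either direction. Cdkn1a, the p53-induced inhibitor of cyclin-dependent kinases, was not a member (-0.72 in CapH2, -0.62 in Smc2 and 0.74 in Smc1). Bcl2, which protects from apoptosis, rose by 1.95 (adjusted p = 0.0233) from 7.78 and 6.64 in GFP to 37.7 and 67.5, 69.9 and 111, and 89.5 and 85.8, all dim values. Its further probe sets failed the filter on low values and had overlapping arrays, with changes from -0.25 to 0.50. Of 30 glycolysis and hypoxia genes only the glucose transporter Slc2a1 was called, 0.40 higher (adjusted p = 0.0446), while 7 lay below on all 6 arrays (23.3%, against 9.44% of all genes). Among 26 feeder fibroblast genes the chemokine Cxcl12 rose by 1.66 (adjusted p = 0.0140) and Timp1, an inhibitor of metalloproteases, fell by 0.77 (adjusted p = 0.0491). In 14 lists with 376 tested genes, limma called 0, and 23 genes were higher and 56 lower at an unadjusted p below 0.05. Of all genes tested 23.6% had such a p in either direction. The share by direction is not given, so these counts only describe the lists. These lists held 42 genes of G2/M and mitosis, 42 of DNA replication, 33 of DNA repair, 43 ribosomal proteins, 31 Myc targets, 25 polycomb and DNA methylation genes, 38 of Mediator and polymerase pausing and 7 cyclin-dependent kinase inhibitors, whose medians lay between -0.23 and 0.12. Besides the targeted genes no subunit of condensin was called, although all 8 changes were below 0, from -1.22 to -0.27. Of 19 cohesin genes, Smc1a alone was called, while 5 lay below on all 6 arrays (26.3%, against 9.44% of all genes) and 0 above.

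**Figure D5:**
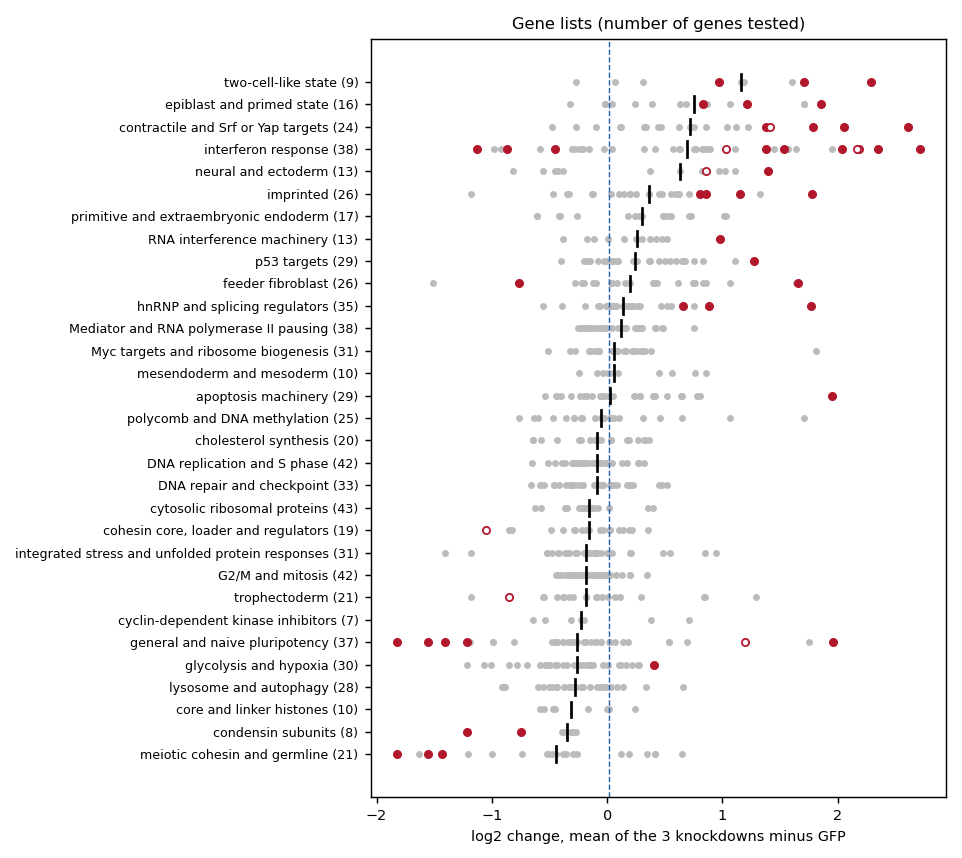
The common log2 change of every tested member of the 31 gene lists (points; number tested in parentheses), with the list's median as a black bar and the median of all genes (0.01) as a dashed line. Red filled points are called genes with all 6 arrays on one side, red open points called genes with overlapping arrays; the medians run from -0.44 for the germline list to 1.16 for the two-cell-like list.

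At the edge of the rule, called genes just inside were Ptk7, a receptor-like kinase, and Celf2, an RNA-binding protein. Ptk7 was at 608 and 455, 672 and 642, and 1031 and 1043, with CapH2 hairpin 4 just above GFP replicate 2 (395 and 454 in GFP). Just outside lay Maml1, a Notch coactivator, at 987 and 781, 895 and 661, and 1529 and 1469 against 449 and 663, with Smc2 hairpin 2 just below GFP replicate 2. On the lower side Smc2 was just inside and Tfap2c, a trophoblast and germ cell factor, just outside, at 2686 and 2819, 2207 and 1975, and 1150.4 and 1251 against 2816 and 4225.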

How the data were processed

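The authors deposited 1 table of intensity, a linear value, for 44903 probe sets on each of 8 Affymetrix arrays. No source used here names the method that summarised probes into probe sets. Per the values themselves, the deposited intensities were scaled to a common trimmed mean (488.9 to 489.96 after trimming 2% at each end) and were not on a log2 scale. Exactly 1 gene symbol was held by 34771 of them, and only these were used. The probe set with the highest mean log2 value stood for each gene, and a gene was tested where it exceeded the array median on at least 2 of 8 arrays, which left 12394 of 18140 genes.

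Values were analysed as log2(intensity + 16) in R 4.3.3 with limma 3.58.1 (group means of all 8 arrays, eBayes with an intensity trend). Adjusted p-values are Benjamini-Hochberg over all genes tested. The script was tested on simulated data. The 2 arrays of each group limit the precision. The members, the 31 gene lists (750 genes tested) and the tests were chosen with earlier results of these data known. Named were the targeted genes, the 12 called members each way with the largest smallest change among knockdowns and at least 200 intensity units, up to 4 called members of each list, the 5 with the smallest p of the F test among knockdowns, and Pou5f1, Nanog, Sox2, Klf4, Esrrb, Cdkn1a and Hnrnpll. The others were picked after their values were seen, where the text says so or for being in a named list. Replicate numbers, which only the Smc1 and GFP titles share, did not pair the arrays (correlation of their differences across genes 0.07). Between knockdowns the difference of the first from the second array correlated at 0.41 (CapH2 and Smc2), 0.26 (CapH2 and Smc1) and 0.21 (Smc2 and Smc1), while the fit treats arrays as independent. The labels give these arrays no shared number, so no block was fitted for it.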

Additional observations from a re-analysis of the deposited data

Results flagged for a closer look

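For 19 of the genes that the text names, limma's F test found that the 3 knockdowns differed (adjusted p below 0.05 over all genes). The targeted genes were left aside. The value given is the log2 difference between the Smc1 knockdown and the mean of the CapH2 and Smc2 knockdowns. Among immune genes it was 3.40 for Psmb8, 1.88 for H2-D1 and 1.42 for H2-K1. It was 2.53 for the Hippo kinase Lats2, 2.34 for Tmcc3, 2.23 for the protease Mmp9, 2.13 for the semaphorin Sema3e, 2.09 for the myosin light chain Myl9 and 1.10 for Id2. Among imprinted genes it was 1.23 for Rian, 1.11 for Meg3 and 0.93 for Ndn. In the other direction it was -1.65 for Prdm14 and -1.67 for Tcl1, both lower than GFP on all 6 knockdown arrays. It was -0.85 for Zfp42, a marker of naive cells, -0.99 for Tfap2c and -2.86 for Sox1, a neural factor.

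In Klf4 and Cdkn1a the change from GFP had opposite signs in the condensin and the Smc1 knockdowns, and neither was a member. Klf4, a naive pluripotency factor, was at 8534 and 7639 in CapH2, 8977 and 7334 in Smc2, and 2134 and 2660.2 in Smc1, against 5780.4 and 7842 in GFP, a difference of -1.76. Against GFP, Klf4 changed by 0.26 in CapH2 and 0.27 in Smc2 (limma adjusted p = 0.574 and 0.565) and by -1.49 in Smc1 (adjusted p = 0.00278). Cdkn1a was at 2055 and 1649, 1629 and 2396, and 5239 and 4976 against 2655 and 3487, a difference of 1.41. Against GFP, Cdkn1a changed by -0.72 in CapH2, -0.62 in Smc2 and 0.74 in Smc1. None of these passed the threshold (limma adjusted p = 0.290, 0.315 and 0.0510).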

How the results depend on the processing

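The count of 418 called genes (315 higher, 103 lower) stayed within 1.5 times under quantile normalization (444), median centring (588), added constants of 1 (390) and 64 (413), a minimum mean of 200 (338), and without Smc2 hairpin 1 (402) or Smc1 replicate 2 (355). It fell outside under the others. It was 162 (130 and 32) with no filter on low values, 101 (80 and 21) with the mean of all probe sets per gene, 4 (4 and 0, 2278 genes at an unadjusted p below 0.05 in limma) with the 6 knockdown arrays as 1 group, 5 (5 and 0, 1650 unadjusted) with the Actb ratio as a covariate and 74 (63 and 11) without the intensity trend. It was 1 (1 and 0, 1857 unadjusted) without the Smc1 knockdown, 739 (537 and 202) without CapH2 and 1156 (765 and 391) without Smc2. With the replicate number of Smc1 and GFP as a block it was 181 (142 and 39). Leaving out single arrays gave 1 to 1176 called genes (1 to 683 higher, 0 to 493 lower; the lowest unadjusted count was 1429), and 1623 to 2967 genes above and 1243 to 2519 below GFP on all remaining arrays, with the highest counts without GFP replicate 2 and then without GFP replicate 1 (2496 and 2245). The count of genes that differed among knockdowns (286) was 95 with no filter, 149 with the mean of probe sets, 1 without Smc1, 455 without CapH2, 628 without Smc2, 72 with the replicate block, 887 with the Actb covariate, 19 without the trend and 3 to 564 without single arrays. For Smc1 against the condensin knockdowns (961) it was 594 with no filter, 455 without CapH2, 628 without Smc2, 1646 with the Actb covariate and 9 to 1163 without single arrays. Fewer arrays or more genes can lower the power of a fit. Fits with fewer arrays gave counts both below the main one (1 without Smc1) and above it (739 without CapH2 and 1156 without Smc2). The cause of the changes in count was not tested. Of 58 named genes with a call, 57 kept it under quantile normalization, 31 with the replicate block, 27 with no filter, 2 with the Actb covariate, 1 without Smc1, 5 without GFP replicate 1 and 1 without GFP replicate 2. Signal over background limits the dim genes, since 57 called members that rose had a GFP mean below the lowest array median.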

Other observations

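Lists of organelle and metabolic genes held members that were lower on every knockdown array without passing the test. Of 28 lysosome and autophagy genes 6 lay below GFP on all 6 arrays (21.4%, against 9.44% of all genes tested) and none above, with a median common change of -0.28, and limma called 0 (5 at an unadjusted p below 0.05). The lysosomal enzymes among these 6 were Glb1, a beta-galactosidase (-0.91, adjusted p = 0.0577), Ctsb, a cathepsin protease (-0.89, adjusted p = 0.0788), Ctsa (-0.88, adjusted p = 0.0839) and Gaa, an acid alpha-glucosidase (-0.32, adjusted p = 0.323). Of 30 glycolysis and hypoxia genes 7 lay below on all 6 arrays (23.3%, against 9.44% of all genes). Among them were Hk1, a hexokinase (-1.21, adjusted p = 0.0683), and Pkm, the pyruvate kinase (-0.43, adjusted p = 0.133). Of 31 genes of the integrated stress and unfolded protein responses 4 lay above (12.9%, against 12.6% of all genes) and 6 below (19.4%, against 9.44%). In this list limma called 0, with 3 higher and 9 lower at an unadjusted p below 0.05, where 23.6% of all genes were in either direction.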
